A study of Mus musculus with 36 samples.

Results

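The SOX family of transcription factors was followed through the cells of the fetal mouse gonad with 10 of its genes: Sox2, Sox4, Sox8, Sox9, Sox10, Sox11, Sox12, Sox13, Sox15 and Sox17. They were taken by name from the array's annotation, as probe sets carrying exactly 1 gene symbol, and are 10 of the 19938 genes named in that way. Each was read by 1 probe set, and all 10 were among the 17571 genes bright enough to be tested. The study sorted germ cells and supporting cells from gonads that had been pooled by sex, and measured their RNA on 36 arrays, 3 in each of 12 groups. The groups are XY and XX germ cells and XY and XX supporting cells, each at 3 stages: TS13, before sexual differentiation per the labels, TS24, during it, and TS34, after it. Germ cells of both sexes came at every stage from mice descended from C57BL/6NJ on a mixed background, with Oct4 as the gene reported. XY supporting cells at TS24 and TS34 came from Tg(Sox9-cre/ERT2)1Msan/J mice bred from C57BL/6, with Sox9 as the gene reported. XY supporting cells at TS13 and XX supporting cells at every stage carried Tg(Sry-EGFP)92Ei in progeny of CD-1, with Sry as the gene reported. Each group is thus limited to the cells that its reporter marked, and in supporting cells at TS24 and TS34 sex cannot be told apart from mouse line and reporter.

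SOX proteins bind DNA through an HMG box related to that of SRY, the switch of testis determination on the Y chromosome. In the XY gonad, SRY acts with NR5A1 to raise SOX9 in supporting cells, SOX9 keeps itself on with FGF9 and prostaglandin D2 signalling, and SOX8 and SOX10 belong to the same SoxE group. SOX2 belongs to the SoxB group and works with OCT4 (Pou5f1) in pluripotent cells and early germ cells, while SOX4, SOX11 and SOX12 form the SoxC group, known in neural and mesenchymal progenitors. SOX13 is a SoxD protein, SOX15 a SoxG protein and SOX17 a SoxF protein of endoderm and vessels.

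The library labelled germ XX TS24 replicate 3 stood apart and was left out, so that group has 2 arrays and 35 arrays were used. Its mean level over 6 germ cell markers was 5.85, over 6 supporting cell markers 9.99 and over the 7 interstitial and stromal markers on the array 9.18, whereas the remaining germ XX TS24 arrays had germ cell marker means of 10.76 and 10.90. In the arrays used, the 5 germ cell markers other than Pou5f1 (Oct4), the gene of the germ cell sort, were all called higher in germ cells than in supporting cells, and all 6 supporting cell markers were called lower. Array medians lay between 6.412 and 6.841. Levels below are the deposited RMA values on the log2 scale, differences are log2 differences with their standard error (SE) from limma, and a difference was called at an adjusted p under 0.05 over all genes tested. The labels do not say that replicates came from separate pools of gonads, so the p-values measure a spread between samples that may be technical only.

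Among the SoxE genes, Sox9, the SRY target that directs Sertoli cell development, was already high in XY supporting cells at TS13. The 3 XY arrays at TS13 had levels of 11.76, 11.71 and 11.62, against 8.47, 8.21 and 8.71 in XX supporting cells. The groups did not overlap, and the difference was 3.23 ± 0.21 (SE, n = 3 each), a 9.39-fold difference (adjusted p = 8.5e-17, limma). Both groups carried the Sry-EGFP line on CD-1, so mouse line does not differ in this comparison. At TS24 the XY supporting arrays had Sox9 levels of 11.85, 11.37 and 11.35, against 8.71, 8.90 and 8.72 in XX. At TS34 they had 11.11, 11.00 and 10.97, against 8.54, 8.62 and 9.02 in XX. These XY cells were sorted on Sox9, so their differences of 2.75 and 2.30 are given without a test. Sox9 lay between 7.18 and 8.34 on the 17 germ cell arrays used, with a largest sex difference of -0.31 ± 0.24 (adjusted p = 0.566), XY minus XX at TS24. The order of the 12 groups was XY supporting cells at TS13 and TS24, whose arrays overlapped, and at TS34, then the XX supporting groups, then all germ cell groups. The arrays of XY supporting cells at TS34 did not overlap with those at TS24 above them or with those of any XX group below them, whereas the XX supporting and the germ cell groups each overlapped with their neighbours in the order. In these sorted bulk samples, fewer cells expressing a gene and less RNA of it per cell cannot be told apart.

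Sox8, the SoxE gene that acts beside Sox9 in Sertoli cells, had a later pattern. XY supporting cells had levels of 7.07, 7.05 and 7.54 at TS13, of 7.92, 7.85 and 7.90 at TS24, and of 8.16, 8.83 and 8.71 at TS34. The arrays of the 3 stages did not overlap. XX supporting cells stayed between 6.57 and 6.98 on all 9 arrays, and germ cells between 6.36 and 7.31. XY minus XX was 0.41 ± 0.22 at TS13 (adjusted p = 0.558), 1.11 ± 0.22 at TS24 (adjusted p = 0.000108) and 1.81 ± 0.22 at TS34 (adjusted p = 3.83e-09), or 3.51-fold at TS34. Within XY supporting cells, TS34 exceeded TS13 by 1.35 ± 0.22 (adjusted p = 7.06e-06), a comparison that also changes the mouse line. XX supporting cells, which kept 1 line, had a TS34 minus TS13 difference of -0.05 ± 0.22 (adjusted p = 0.996). The start of the Sox8 transcript, from 250 bases before to 50 after it, is shown because Sox8 is the member with called sex and stage differences in supporting cells. It lies at chr17:25570637-25570936 on the minus strand (GRCm38.p6, RefSeq), and the capitals mark 2 GC boxes (GGGCGG).
Sox8: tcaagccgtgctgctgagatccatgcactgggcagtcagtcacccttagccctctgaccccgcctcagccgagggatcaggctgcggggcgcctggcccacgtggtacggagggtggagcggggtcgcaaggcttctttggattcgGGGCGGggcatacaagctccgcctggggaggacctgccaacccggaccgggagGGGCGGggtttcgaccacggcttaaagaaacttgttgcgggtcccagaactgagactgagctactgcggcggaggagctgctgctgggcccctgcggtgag

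Sox10, the SoxE gene of neural crest and glia, was also higher in XY than in XX supporting cells once differentiation had begun. XY supporting cells had levels of 7.66, 7.57 and 7.59 at TS13, of 8.84, 8.32 and 8.13 at TS24, and of 7.95, 8.02 and 8.13 at TS34. XX supporting cells had 7.19, 7.22 and 7.17 at TS13, 7.25, 7.48 and 7.15 at TS24, and 7.22, 6.79 and 6.96 at TS34. The XY and XX arrays did not overlap at any of the 3 stages. The difference was 0.41 ± 0.20 at TS13 (adjusted p = 0.418), 1.14 ± 0.20 at TS24 (adjusted p = 1.05e-05) and 1.04 ± 0.20 at TS34 (adjusted p = 5.15e-05). Germ cells ranged from 6.67 to 7.77, overlapping with XX supporting cells. Of 8 neural crest and glia markers, 5 were on the array. Their mean level ran from 7.44 to 7.74 in XY supporting cells at TS24 and from 7.54 to 7.75 at TS34, against 6.25 to 6.65 and 6.66 to 6.82 in XX supporting cells. At TS24 the neuregulin receptor gene Erbb3 and the fatty acid binding protein gene Fabp7 were called higher in XY cells, by 3.10 ± 0.22 and 1.71 ± 0.30, and at TS34 Erbb3 and S100b were, by 3.25 ± 0.22 and 0.81 ± 0.21. Foxd3, a transcription factor of early neural crest, differed by 0.08 ± 0.20 at TS24 and by 0.21 ± 0.20 at TS34 and was called at neither stage. Also not called were Ngfr (0.07 ± 0.21 at TS24 and 0.06 ± 0.21 at TS34), S100b at TS24 (0.49 ± 0.21) and Fabp7 at TS34 (0.22 ± 0.30). Erbb3 was called higher in XY than in XX germ cells too, at TS24 (0.90 ± 0.24) and TS34 (1.07 ± 0.22). The part of neural crest or glial cells in the Sox10 difference was not tested.

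**Figure D1:**
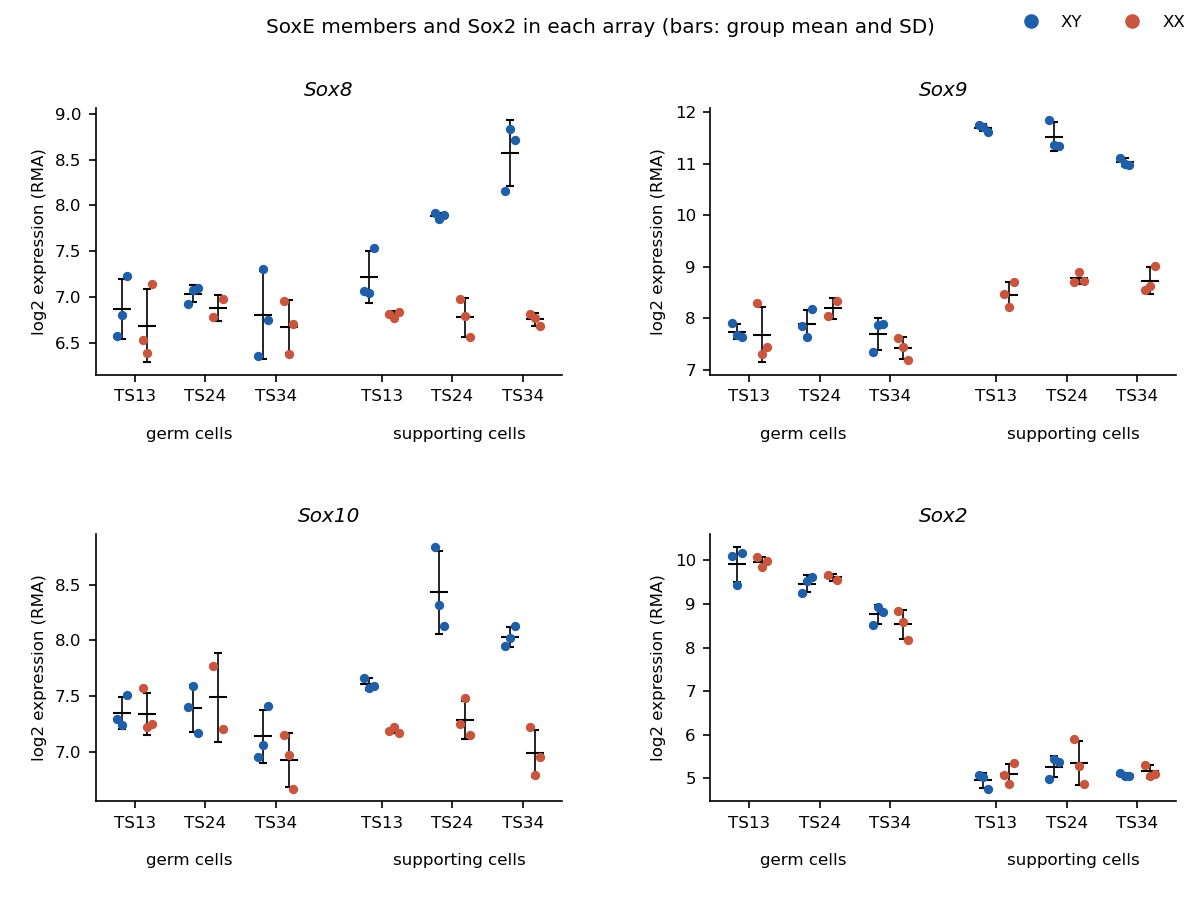
Deposited log2 level of Sox8, Sox9, Sox10 and Sox2 on each of the 35 arrays (points), by cell type and stage, with XY in blue and XX in red and bars for the group mean and SD. Sox9 lies at 10.97 or more on every XY supporting array, Sox8 reaches 8.83 in XY supporting cells at TS34, and Sox2 lies at 8.17 or more on every germ cell array and at 5.89 or less on every supporting array.

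Sox2, a partner of OCT4, marked the germ cells. Its level in XY germ cells was 10.11, 9.44 and 10.17 at TS13, 9.25, 9.52 and 9.62 at TS24, and 8.52, 8.94 and 8.82 at TS34. In XX germ cells it was 10.08, 9.86 and 9.98 at TS13, 9.67 and 9.56 at TS24, and 8.83, 8.59 and 8.17 at TS34. The TS34 arrays lay below the TS13 arrays in each sex without overlap. TS34 minus TS13 was -1.15 ± 0.22 in XY germ cells (adjusted p = 0.000121) and -1.44 ± 0.22 in XX germ cells (adjusted p = 1.21e-06). With the left-out library restored to the fit, which widens the spread, these falls had adjusted p = 0.352 in XY and 0.0943 in XX. XY minus XX was -0.07 ± 0.22, -0.15 ± 0.24 and 0.23 ± 0.22 at TS13, TS24 and TS34, and none was called. The 18 supporting arrays lay between 4.75 and 5.89, and Sox2 exceeded its array's 25th percentile on 3 of them, against all 17 germ cell arrays. Over all stages and both sexes, the levels averaged 9.38 in germ cells and 5.15 in supporting cells, a difference of 4.23 ± 0.09 (adjusted p = 1.26e-39) that is tied to mouse line and reporter. With each supporting array set to no less than its own 25th percentile, which raises their mean to 5.34, Sox2 was at least 16.4-fold higher in germ cells. The start of Sox2 is shown because it is the member with the largest difference between the lineages. It lies at chr3:34649745-34650044 on the plus strand (GRCm38.p6, RefSeq), and the capitals mark, from left to right, a GC box (GGGCGG), the SOX motif ACAAAG at position -206 from the start, a GC box on the other strand and a CCAAT box on the other strand.
Sox2: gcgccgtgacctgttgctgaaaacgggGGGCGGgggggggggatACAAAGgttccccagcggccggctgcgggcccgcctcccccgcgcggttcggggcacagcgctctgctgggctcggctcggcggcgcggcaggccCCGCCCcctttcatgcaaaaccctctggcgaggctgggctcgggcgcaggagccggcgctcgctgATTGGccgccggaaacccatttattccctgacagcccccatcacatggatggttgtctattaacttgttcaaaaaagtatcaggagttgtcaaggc

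The SOX motif ACAAAG was searched for on both strands, in windows of this length around 32851 RefSeq gene starts, and 18.7% of them hold it. The GC box (GGGCGG) stood in 35.7% of those windows and the CCAAT box in 37.4%, so each is common, and no matches shown overlap. The windows of 7 members were searched, Sox2, Sox4, Sox8, Sox11, Sox12, Sox13 and Sox15, and ACAAAG was found in those of Sox2 and Sox15. The matches describe the letters only.

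The SoxC genes were higher in supporting cells than in germ cells, and Sox11 also differed between the sexes in supporting cells. XY supporting cells had Sox11 levels of 8.47, 8.64 and 8.21 at TS13, of 8.04, 8.44 and 8.02 at TS24, and of 7.73, 7.86 and 7.98 at TS34. XX supporting cells had 8.09, 8.14 and 8.41 at TS13, 9.06, 9.12 and 8.56 at TS24, and 8.91, 8.77 and 8.91 at TS34. The XY arrays overlapped with the XX arrays at TS13 and lay below all of them at TS24 and TS34. The Sox11 difference, XY minus XX, was 0.23 ± 0.25 at TS13 (adjusted p = 1), -0.74 ± 0.25 at TS24 (adjusted p = 0.0295) and -1.01 ± 0.25 at TS34 (adjusted p = 0.00215). The TS24 call was lost without XX replicate 1 (adjusted p = 0.111), XX replicate 2 (0.135), XY replicate 1 (0.119) or XY replicate 3 (0.11). With all 36 arrays, the TS24 and TS34 differences had adjusted p = 0.199 and 0.0589. XX supporting cells at TS34 exceeded those at TS13 by 0.65 ± 0.25 (adjusted p = 0.161), and in XY supporting cells TS34 minus TS13 was -0.58 ± 0.25 (adjusted p = 0.144), so neither stage difference was called. In XY germ cells Sox11 had levels of 7.34, 6.58 and 7.79 at TS13, of 6.99, 6.75 and 6.86 at TS24, and of 5.90, 6.60 and 6.39 at TS34. TS34 and TS13 overlapped at 6.60 and 6.58, and TS34 minus TS13 was -0.94 ± 0.25 (adjusted p = 0.00838), a call lost without TS13 replicate 3 (adjusted p = 0.168) or TS34 replicate 1 (0.104), and with all 36 arrays (0.133). The start of Sox11 is shown because Sox11 alone among the members was called lower in XY than in XX supporting cells at TS24 and TS34. It lies at chr12:27342669-27342968 on the minus strand (GRCm38.p6, RefSeq), and the capitals mark 2 GC boxes and a CCAAT box, all on the other strand.
Sox11: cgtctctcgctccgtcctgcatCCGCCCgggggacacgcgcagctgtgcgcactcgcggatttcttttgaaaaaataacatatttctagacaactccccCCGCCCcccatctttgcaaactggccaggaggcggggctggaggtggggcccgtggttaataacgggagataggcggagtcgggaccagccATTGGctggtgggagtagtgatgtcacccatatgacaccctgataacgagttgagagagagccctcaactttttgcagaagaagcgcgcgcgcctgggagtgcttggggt

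Sox4, which shares DNA targets with Sox11, ranged from 6.71 to 7.70 on the germ cell arrays and from 7.47 to 8.47 on the supporting arrays. Germ minus supporting was -0.82 ± 0.09 (adjusted p = 1.05e-11). In supporting cells at TS34, Sox4 had levels of 7.69, 7.47 and 7.85 in XY against 8.06, 8.23 and 8.27 in XX. These did not overlap, but the difference of -0.52 ± 0.21 was not called (adjusted p = 0.1). Sox12, the remaining SoxC gene, ranged from 7.82 to 8.84 in germ cells and from 8.31 to 9.73 in supporting cells, with a germ minus supporting difference of -0.65 ± 0.08 (adjusted p = 1.96e-09). Its sex difference of greatest size was in germ cells at TS24, with levels of 8.29, 8.06 and 8.0 in XY against 8.64 and 8.84 in XX. The arrays did not overlap, and the difference was -0.63 ± 0.22 (adjusted p = 0.136). For Sox11, germ minus supporting was -1.65 ± 0.10 (adjusted p = 6.86e-20), with germ cell arrays from 5.66 to 7.79 and supporting arrays from 7.73 to 9.12.

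Sox13, the SoxD gene, and Sox15, the SoxG gene, were higher in XY than in XX supporting cells at TS24. Sox13 had levels of 8.86, 8.16 and 8.40 in XY supporting cells against 7.42, 7.74 and 7.41 in XX, and these did not overlap. The difference was 0.95 ± 0.22 (adjusted p = 0.0012). At TS34 Sox13 had 7.76, 7.88 and 8.08 in XY supporting cells against 7.43, 6.84 and 7.32 in XX, a difference of 0.71 ± 0.22 (adjusted p = 0.0205). That call was lost without XX replicate 2 (adjusted p = 0.195), XY replicate 2 (0.0532) or XY replicate 3 (0.114).

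Sox15 had levels of 8.19, 7.78 and 7.82 in XY supporting cells at TS24 against 7.07, 7.11 and 7.07 in XX. The groups did not overlap, and the difference was 0.85 ± 0.21 (adjusted p = 0.00298). At TS34 it had 7.29, 7.31 and 7.40 in XY against 7.20, 6.71 and 6.97 in XX, and the difference of 0.37 ± 0.21 was not called (adjusted p = 0.326). In XX germ cells Sox15 had 8.51, 7.64 and 7.64 at TS13, 7.46 and 7.12 at TS24, and 7.03, 6.93 and 6.73 at TS34. The XX stages followed each other downward without overlap, and TS34 minus TS13 was -1.03 ± 0.21 (adjusted p = 0.000293). In XY germ cells the difference was -0.54 ± 0.21 (adjusted p = 0.125).

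In XX germ cells Sox13 had levels of 8.44, 7.52 and 7.89 at TS13, 8.11 and 7.68 at TS24, and 7.52, 7.47 and 6.97 at TS34. TS13 and TS34 met at 7.52, and TS34 minus TS13 was -0.63 ± 0.22 (adjusted p = 0.0399). The call was lost without TS13 replicate 1 (adjusted p = 0.326), TS13 replicate 3 (0.0683), TS34 replicate 2 (0.0525) or TS34 replicate 3 (0.253). XY germ cells had a Sox13 difference of -0.64 ± 0.22 (adjusted p = 0.0649). The test of the change in sex difference, TS34 minus TS13, gave -0.01 ± 0.31 for Sox13 (adjusted p = 0.993).

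Sox17, known in endoderm, vessels and, in humans, in primordial germ cells, lay between 5.22 and 6.32 on all 35 arrays. Its 12 group means spanned 0.43, and no comparison called it. On 32 of the 35 arrays it passed the 25th percentile of that array. Endothelial markers, of which all 8 were on the array, had means per array from 6.03 to 6.96 in germ cells and from 5.95 to 6.35 in supporting cells. Pecam1, an adhesion gene of endothelium that germ cells also express, had a germ minus supporting difference of 3.31 ± 0.10, while the other 7 lay between -0.42 (Kdr) and 0.43 (Cldn5).

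**Figure D2:**
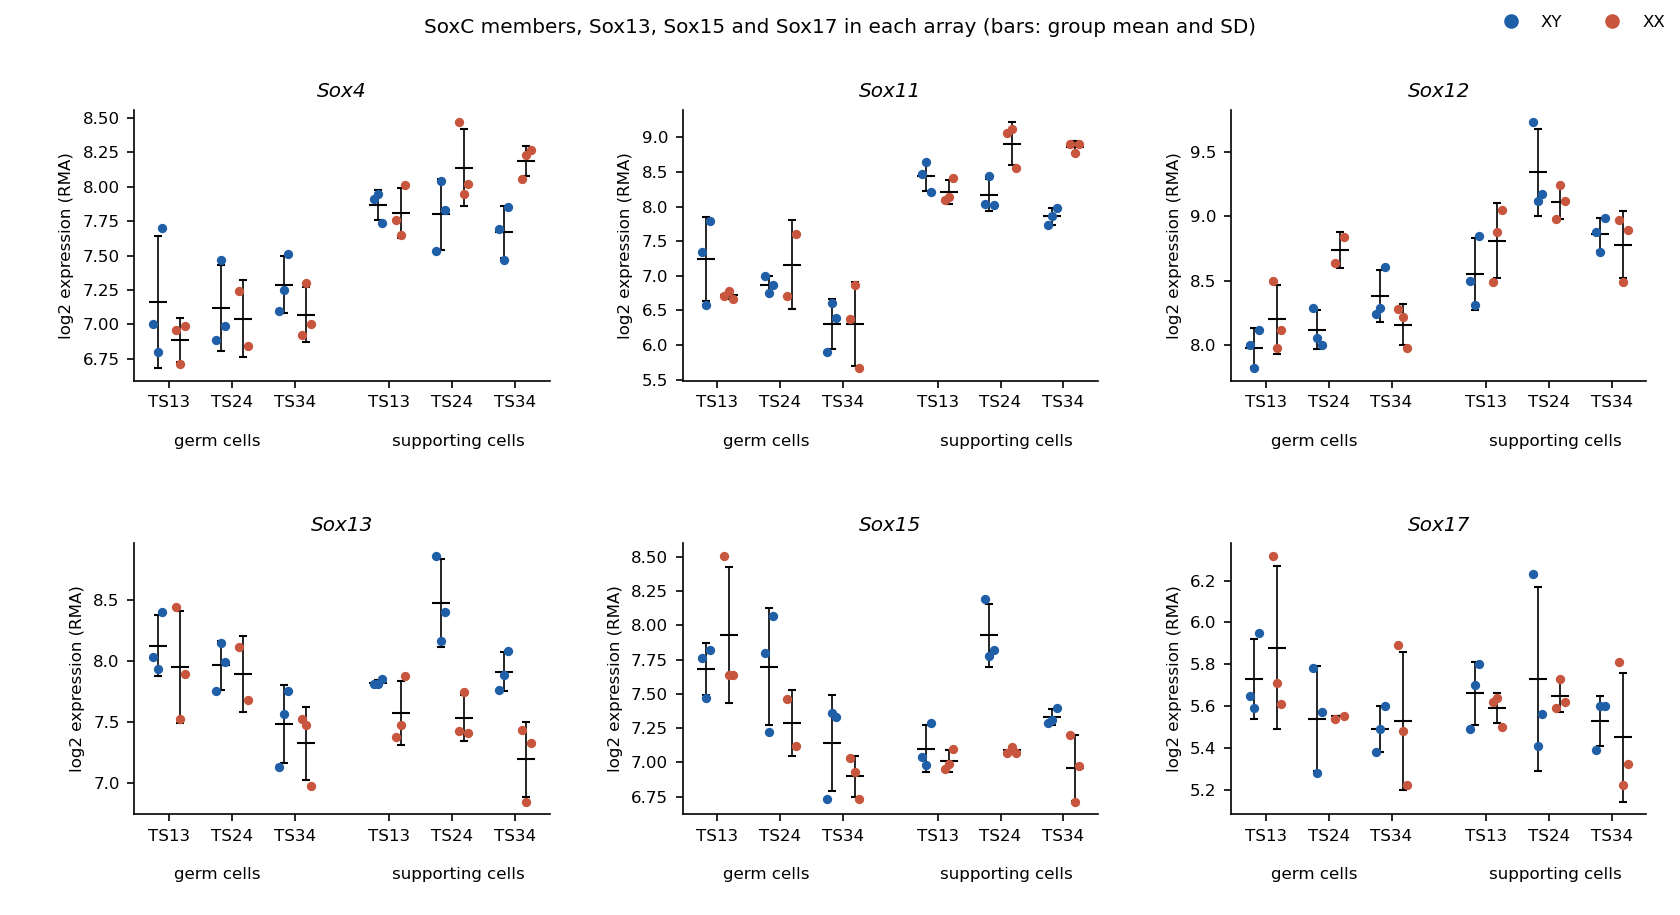
Deposited log2 level of Sox4, Sox11, Sox12, Sox13, Sox15 and Sox17 on each of the 35 arrays (points), by cell type and stage, with XY in blue and XX in red and bars for the group mean and SD. Sox11 ranges from 5.66 to 7.79 in germ cells and from 7.73 to 9.12 in supporting cells, and Sox17 stays between 5.22 and 6.32; the vertical scale differs between genes.

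The question of the XY and XX comparison within supporting cells is which SOX genes separate the testicular from the ovarian path, and when. At TS13, 1 of 10 members was called, Sox9, where 3.78% of all genes tested were. At TS24, 4 of the 9 members tested were higher in XY (Sox8, Sox10, Sox13 and Sox15) and 1 was lower (Sox11), where 15.3% of all genes were called in either direction. At TS34, 3 of 9 were higher (Sox8, Sox10 and Sox13) and 1 was lower (Sox11), where 14% of all genes were called. Sox2, Sox4, Sox12 and Sox17 were called at none of the stages. Without Sox9, the median of the 9 members was 0.09, 0.23 and 0.08 at TS13, TS24 and TS34, beside medians of -0.07, 0.04 and -0.01 over all genes. Markers of other cells were called in the same comparisons. Of 9 interstitial and stromal markers, 6 were tested, and Pdgfra was higher in XY (1.80 ± 0.26 at TS13 and 0.80 ± 0.26 at TS24) and Nr2f2 lower (-1.13 ± 0.27 and -1.54 ± 0.27), with list means of 6.64 to 6.96 in XY and 6.67 to 7.08 in XX supporting cells at TS24. Of 5 erythroid markers, 2 were on the array, with means of 8.38 to 9.80 in XY against 6.19 to 8.88 in XX at TS24 and of 8.08 to 8.38 against 6.53 to 8.60 at TS34, and Alas2 was higher in XY (0.70 ± 0.20 and 0.75 ± 0.20). Hbb-y was not called at these stages (1.32 ± 0.74 and 0.28 ± 0.74). Of 5 markers of mesonephric epithelium, Emx2 was lower in XY at the 3 stages (-0.97 ± 0.22, -3.15 ± 0.22 and -2.59 ± 0.22). Pax2, Pax8, Lhx1 and Cdh16 were called at none of them. Emx2 was itself higher in supporting than in germ cells (germ minus supporting -2.26 ± 0.09). No endothelial or macrophage marker was called. Among the germ cell markers, Kit was lower in XY at TS34 (-0.95 ± 0.22), and none was called at TS13 or TS24. The part of such cells in the members' differences was not tested. The lines differ between XY and XX at TS24 and TS34, and the effect of line and reporter on these counts cannot be told apart from that of sex.

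In germ cells, XY minus XX called 0 of 10 members at each stage with limma. At TS13, 0.0285% of all genes tested were called, with 554 genes at an unadjusted p under 0.05. At TS24 the share was 1.96%, with 2629 genes under that limit, and at TS34 it was 10.5%, with 3676. Of the members, Sox11 at TS13 (0.52 ± 0.25, adjusted p = 1) and Sox12 at TS24 had an unadjusted p under 0.05. The change of the germ cell sex difference, TS34 minus TS13, also called 0 of 10, where 3.69% of all genes were called and 2459 had an unadjusted p under 0.05. A difference missed by the test is not shown to be absent: the SE of these differences was 0.20 to 0.25 at TS13 and TS34.

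The difference of the sex differences at TS34, supporting minus germ cells, was called for 3 of 9 members tested, where 12.8% of all genes were called. It was 1.68 ± 0.31 for Sox8 (adjusted p = 4.86e-05), 0.83 ± 0.28 for Sox10 (adjusted p = 0.0369) and -1.01 ± 0.35 for Sox11 (adjusted p = 0.0465), and 2.02 for Sox9, which is given without a test. The Sox8 call held with any 1 array left out. The Sox10 call was lost with any TS34 array left out (adjusted p up to 0.114, without XX supporting replicate 2) except replicate 1 of either supporting group and replicate 3 of either germ group. The Sox11 call was lost with any TS34 array left out (adjusted p up to 0.261, without XX germ replicate 3) except XX germ replicate 2 and XY germ replicate 1.

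**Figure D3:**
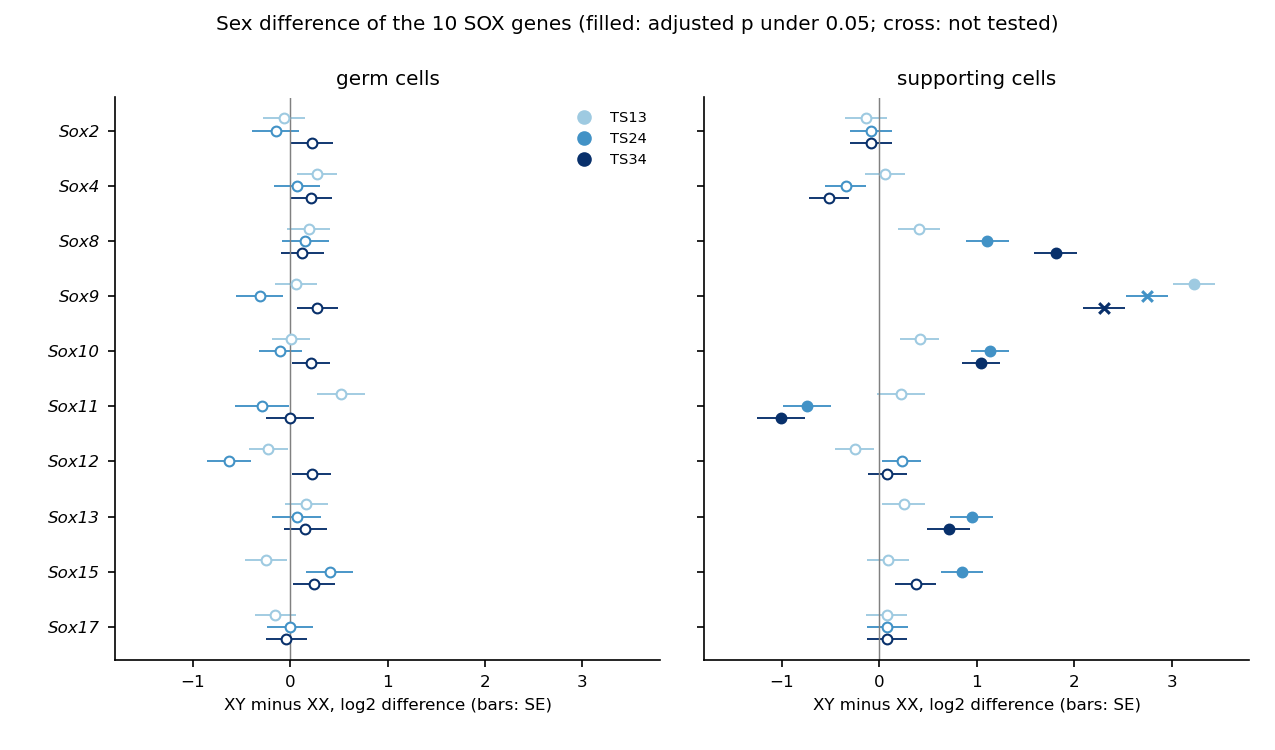
XY minus XX log2 difference of the 10 SOX genes (bars: SE) in germ cells (left) and supporting cells (right), with darker blue for later stages, filled points for an adjusted p under 0.05 and crosses for values given without a test. No germ cell point is filled, and in supporting cells Sox9 is called at TS13 (3.23) while Sox8 stands at 0.41 at TS13, 1.11 at TS24 and 1.81 at TS34.

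Over time, the members called in germ cells were all lower at TS34, and the 1 called in supporting cells was higher. TS34 minus TS13 in XX germ cells was called for 3 of 10, all lower (Sox2, Sox15 and Sox13), where 17.5% of all genes were called. In XY germ cells it was called for 2 of 10, both lower (Sox2 and Sox11), where 8.14% of all genes were. The medians of the members were -0.38 in XX and -0.22 in XY, beside -0.14 and -0.04 over all genes. The erythroid markers, of which 2 of 5 were on the array, had means per array of 6.65 to 7.36 in XY germ cells at TS34, against 8.09 to 8.72 at TS13, and of 6.28 to 7.16 against 8.01 to 8.75 in XX germ cells, with Hbb-y differences of -2.50 ± 0.74 in XY and -2.81 ± 0.74 in XX, both called. The 6 supporting cell markers had means per array of 6.29 to 6.93 in XY germ cells at TS34, against 6.97 to 7.36 at TS13, and of 6.33 to 6.87 against 6.68 to 7.22 in XX germ cells. Of them, Nr0b1 (-1.795 ± 0.304) and Amhr2 (-0.68 ± 0.22) were called lower at TS34 in XY germ cells, and Nr0b1 (-0.92 ± 0.30) in XX. Other markers called in XY germ cells were the Sertoli gene Cst9 (2.15 ± 0.30), Pecam1 (-1.21 ± 0.23) and the stromal gene Nr2f2 (-0.90 ± 0.27). In XX germ cells they were Nr2f2 (-0.995 ± 0.27), the endothelial gene Cdh5 (-0.72 ± 0.25), Erbb3 (-1.03 ± 0.22) and a mesonephric marker, Lhx1 (-0.82 ± 0.23). Of these genes, Pecam1 (3.31 ± 0.10), Lhx1 (1.44 ± 0.09) and Erbb3 (0.44 ± 0.09) were themselves called higher in germ than in supporting cells. Which cells their falls come from was not tested. The part of other cells in the members' falls, among them that of Sox11, was not tested either. In XX supporting cells 0 of 10 members were called by limma, where 4.64% of all genes were, with 2052 genes at an unadjusted p under 0.05, Sox11 among them. Markers of other cells called there were the germ cell gene Dazl (1.14 ± 0.27) and Fabp7 (2.41 ± 0.30), both higher at TS34. Of 6 interstitial and stromal markers tested, 2 were lower. In XY supporting cells 1 of 9 was called, Sox8, where 10% of all genes were. Markers of other cells called higher at TS34 there were Erbb3 (2.49 ± 0.22), Fabp7 (1.65 ± 0.30), the germ cell gene Dppa5a (1.14 ± 0.36) and Alas2 (0.66 ± 0.20). Called lower were the mesonephric markers Emx2 (-1.97 ± 0.22) and Pax8 (-0.64 ± 0.21) and 2 of 6 interstitial and stromal markers. The part of such cells in the Sox8 difference was not tested. Sox9 had a difference of -0.67 in XY supporting cells, given without a test because the TS34 cells were sorted on Sox9.

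**Figure D4:**
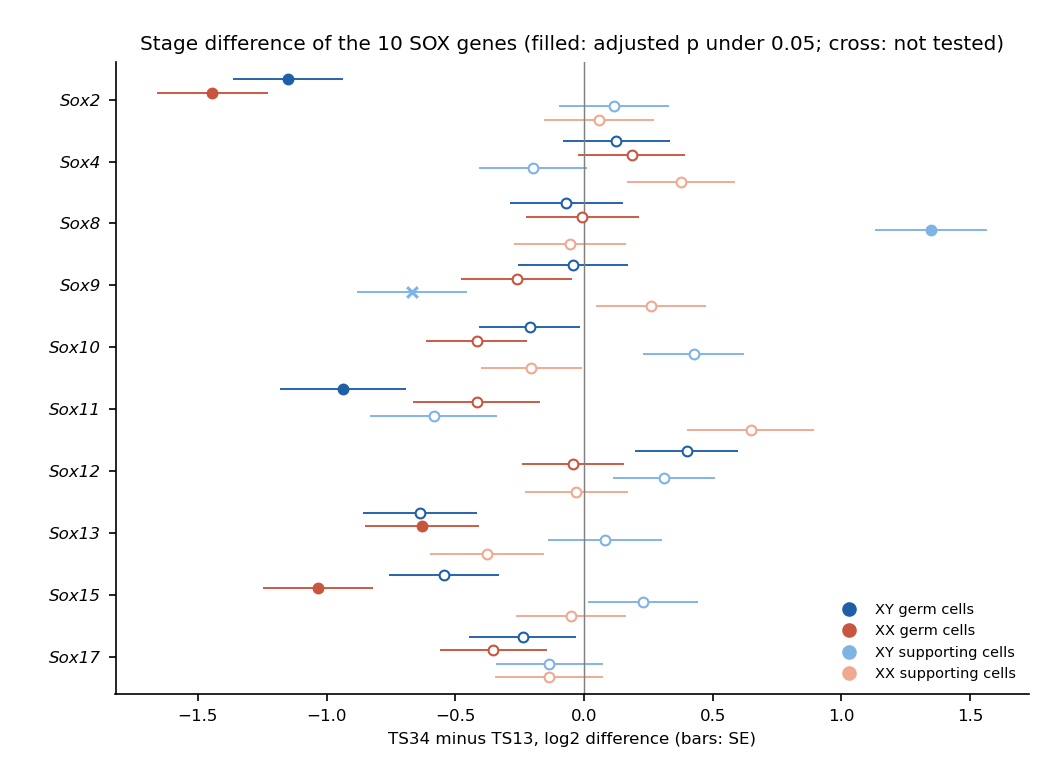
TS34 minus TS13 log2 difference of the 10 SOX genes (bars: SE) in XY and XX germ cells (dark) and XY and XX supporting cells (light), with filled points for an adjusted p under 0.05 and a cross for the value given without a test. Sox2 is lower at TS34 in germ cells of both sexes (-1.15 in XY and -1.44 in XX), and Sox8 is higher in XY supporting cells (1.35).

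Between the lineages, germ minus supporting was called for 6 of 9 members tested, 1 higher (Sox2) and 5 lower (Sox11, Sox4, Sox12, Sox8 and Sox10), where 53.2% of all genes were called. Sox8 and Sox10 had small differences, -0.51 ± 0.09 (adjusted p = 3.44e-06) and -0.32 ± 0.08 (adjusted p = 0.000766). In both, the 9 XX supporting arrays overlapped with the germ cell arrays. Sox15 had 0.20 ± 0.09 (adjusted p = 0.053) and Sox13 0.04 ± 0.09 (adjusted p = 0.754). Sox9 had -2.27, given without a test. With the share called near that of all genes, the number of members called is not a result about the family.

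Genes known to act upstream of SOX9, with it or after it were read as a list of 20. All were tested at TS13, and 19 at TS24 and TS34, where Sry is given without a test because the XX cells were sorted on it and the XY cells were not. In supporting cells, XY minus XX called 8 higher and 1 lower at TS13, 15 higher and 1 lower at TS24, and 14 higher and 1 lower at TS34, where 3.78%, 15.3% and 14% of all genes were called. The list medians were 0.55, 1.86 and 1.35, beside -0.07, 0.04 and -0.01 over all genes. This list and those that follow were chosen with earlier results of these data known. Their counts beside the shares of all genes are therefore a description and not a test. XY cells at TS24 and TS34 were also sorted on Sox9. At TS13 the called genes of largest difference were Sry (3.67 ± 0.21), Fgf9, a growth factor that sustains Sox9 (3.66 ± 0.19), and Cst9, a cystatin gene of Sertoli cells (2.70 ± 0.30). At TS24 they were Cst9 (5.43 ± 0.30), Amh, the hormone that removes the Müllerian ducts (4.0 ± 0.21), and Cbln4 (3.40 ± 0.21). At TS34 they were Cst9 (5.69 ± 0.30), Amh (3.92 ± 0.21) and Ptgds, the prostaglandin D2 synthase gene (3.52 ± 0.20). Sry, counted among the 8 at TS13, lies on the Y chromosome, so the sexes compared set the direction of its difference. Both supporting groups at TS13 were also sorted on its reporter. The lower gene was Fgfr2, a receptor of FGF9, at -1.51 ± 0.23, -3.26 ± 0.23 and -3.25 ± 0.23 at the 3 stages. Amh was not called at TS13 (0.19 ± 0.21), nor were the shared gonadal factors Wt1 and Gata4 at any stage.

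Genes listed here for the ovarian side, not each a known antagonist of SOX9, mostly went the other way. Of 10, all tested, XY minus XX supporting cells called 6 lower at TS13, 8 at TS24 and 7 at TS34, and none higher, where the same 3.78%, 15.3% and 14% of all genes were called in either direction. Nr2f2, called lower at TS13 and TS24, is also among the interstitial and stromal markers above. Which cells its difference comes from was not tested. The list medians were -1.14, -1.72 and -1.82, beside -0.07, 0.04 and -0.01 over all genes. Fst, the follistatin gene, had the largest difference at each stage, -3.50 ± 0.21, -5.48 ± 0.21 and -5.30 ± 0.21, followed by Bmp2 with -2.76 ± 0.20, -3.93 ± 0.20 and -3.64 ± 0.20. Next came Lef1, a WNT effector, at TS13 (-1.55 ± 0.21), Rspo1, a WNT agonist, at TS24 (-2.49 ± 0.23) and Runx1 at TS34 (-2.44 ± 0.22). Foxl2 and Ctnnb1 were called at no stage, with Foxl2 at -0.06 ± 0.22, 0.25 ± 0.22 and -0.06 ± 0.22. Foxl2 was also not called in germ minus supporting cells (-0.05 ± 0.09) or in XX supporting cells, TS34 minus TS13 (0.07 ± 0.22). Whether its probe set responds to the gene was not tested, so its values do not show equal RNA in the sexes.

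**Figure D5:**
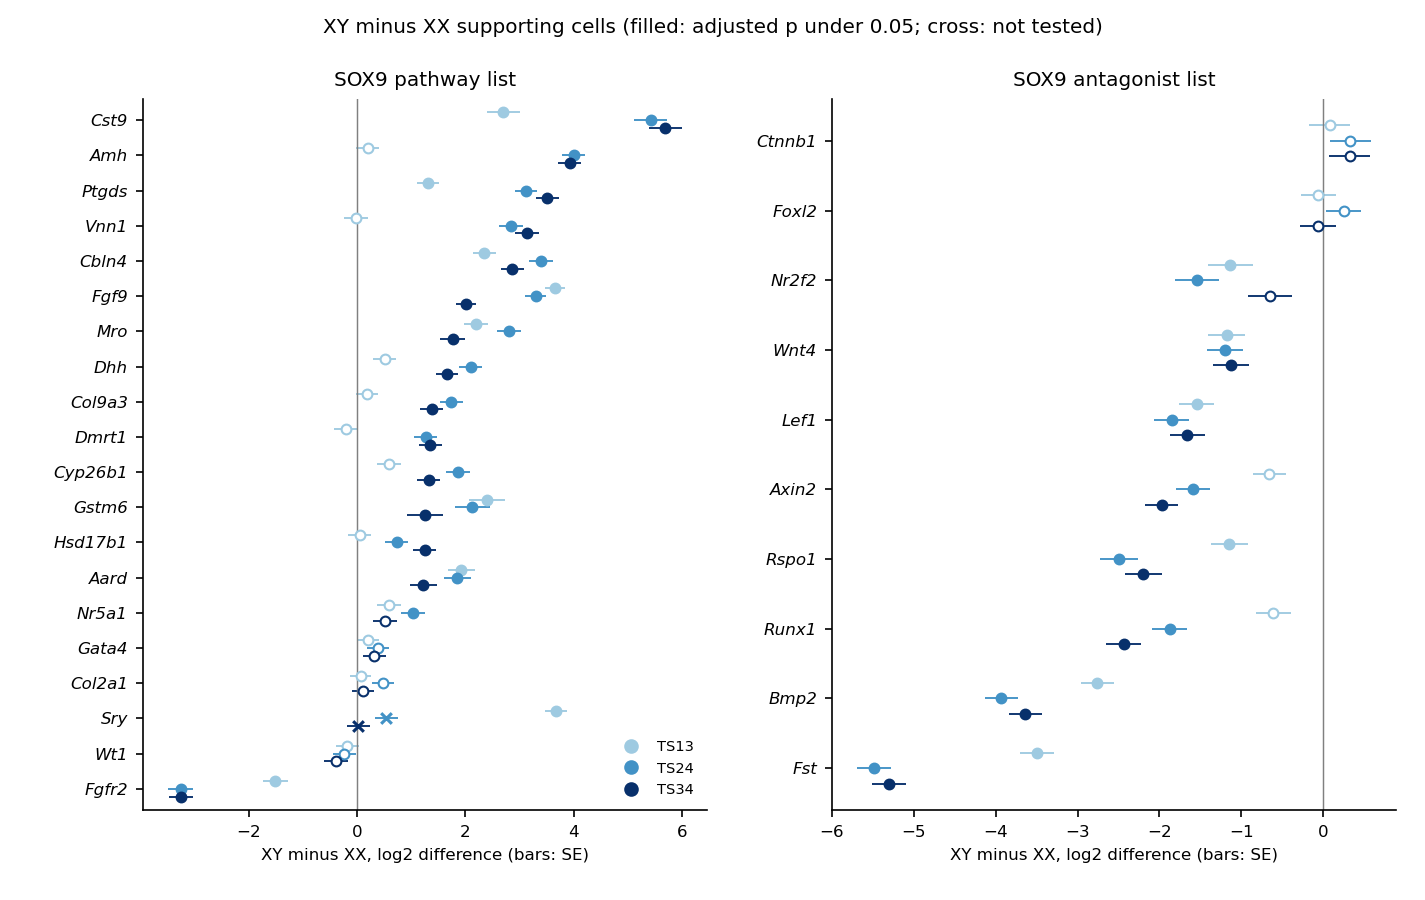
XY minus XX log2 difference in supporting cells (bars: SE) for the 20 genes of the SOX9 pathway list (left) and the 10 genes of the SOX9 antagonist list (right), ordered by their value at TS34, with darker blue for later stages filled points for an adjusted p under 0.05 and crosses for values given without a test. Cst9 reaches 5.69 and Fst -5.30 at TS34, while Sry is called at TS13 (3.67) and has crosses at TS24 and TS34.

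Of 12 partners and targets of SOX2 in pluripotent cells, most were higher in germ cells, and 9 fell over time in XX germ cells and 6 in XY germ cells. Germ minus supporting was called for 9 of the 11 tested, all higher, where 53.2% of all genes were called, with a list median of 2.58 beside 0.08 over all genes. Pou5f1, on whose reporter the germ cells were sorted, differed by 5.49 and is given without a test. The largest differences tested were those of Dppa4 (3.88 ± 0.10), the Nodal co-receptor gene Tdgf1 (3.46 ± 0.11) and Zfp42 (3.03 ± 0.095). The 9 and 6 called lower at TS34 than at TS13 stand beside 17.5% and 8.14% of all genes called, and none was called higher. The largest falls in XX germ cells were those of Tdgf1 (-4.03 ± 0.26), Zfp42 (-2.38 ± 0.23) and Nanog (-2.25 ± 0.24), and in XY germ cells those of Nanog (-1.65 ± 0.24), Tdgf1 (-1.56 ± 0.26) and Esrrb (-1.20 ± 0.24). At TS34, 8 of the 12 were called higher in XY germ cells than in XX, where 10.5% of all genes were called, led by Tdgf1 (3.37 ± 0.26), Lefty1 (1.60 ± 0.23) and Utf1 (1.56 ± 0.25). The change of the sex difference from TS13 to TS34 was called for 5 of them, all in the XY direction, where 3.69% of all genes were called, and for Sox2 it was 0.29 ± 0.30 (adjusted p = 0.712).

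Of 3 known SoxC targets, Tead2 was lower in germ than in supporting cells (-1.82 ± 0.08), while Tubb3 (-0.03 ± 0.12) and Dcx (0.02 ± 0.08) were not called. In germ minus supporting cells 53.2% of all genes were called. Tubb3, a neuronal tubulin gene, was higher in XY supporting cells at TS24 (1.28 ± 0.30) and TS34 (2.79 ± 0.30), where Sox11 was lower. Of 6 genes known beside SOX17 in germ cell specification or endoderm, the germ cell specifiers Prdm1 (3.45 ± 0.09), Tfap2c (1.70 ± 0.11) and Prdm14 (1.63 ± 0.09) were higher in germ than in supporting cells and Gata6 was lower (-2.51 ± 0.09). The endoderm genes Foxa2 and Hnf4a were not called.

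Of 10 further SOX genes on the array, Sry and Sox6 were higher in XY than in XX supporting cells at TS13, by 3.67 ± 0.21 and 1.58 ± 0.20. In that comparison 3.78% of all genes were called. For Sry, on the Y chromosome, the direction was set by the sexes compared. At TS24 and TS34 Sox6, a SoxD gene like Sox13, was the only one called of the 9 tested, at 1.34 ± 0.20 and 1.74 ± 0.20. Of all genes, 15.3% and 14% were called at these stages. In XY supporting cells, TS34 minus TS13, Sox5 was lower (-0.92 ± 0.23), in the comparison that changes the line and called 10% of all genes. Sry differed there by -3.97, given without a test because the TS13 cells were sorted on it. In germ minus supporting cells Sry differed by -0.89, also without a test, Sox5 (-1.12 ± 0.10) and Sox6 (-0.69 ± 0.09) were lower and Sox30 (0.31 ± 0.09) and Sox21 (0.19 ± 0.08) higher. Of the 9 tested, 2 were thus lower and 2 higher, where 53.2% of all genes were called. That count is not a result about these genes. In germ cells no further SOX gene was called by sex or by stage. By sex, 0.0285%, 1.96% and 10.5% of all genes were called at TS13, TS24 and TS34. By stage, the shares were 17.5% in XX and 8.14% in XY germ cells.

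Of the 45 pairs of members, 9 had a Pearson correlation across the 12 group means that rounds to 0.70 or more. Another 4 had -0.7 or below. The limit was set after the values were seen. Within the SoxE group, Sox8 with Sox10 had 0.85, Sox9 with Sox10 0.79 and Sox8 with Sox9 0.77, and within the SoxC group Sox4 with Sox11 had 0.92, Sox4 with Sox12 0.73 and Sox11 with Sox12 0.72. Pairs across groups were Sox13 with Sox15 (0.87), Sox10 with Sox13 (0.82) and Sox15 with Sox17 (0.70), where the group means of Sox17 spanned only 0.43. Sox2 had -0.93 with Sox4, -0.85 with Sox11, -0.77 with Sox12 and -0.74 with Sox9. These points share the arrays and the split between lineages, so the values are a description. XY supporting cells at TS24 and TS34 were also sorted on Sox9. That sort enters every correlation of Sox9, those with its most alike genes below included. The genes most like a member over the same 12 means were Rpl39l (0.998), Fbxo15 (0.997) and Runx1t1 (0.994) for Sox2, and Etd (0.992), Igfbp7 (0.983) and Plppr4 (0.975) for Sox8. For Sox9 they were Aard (0.975), Lama4 (0.973) and Cnga1 (0.971), and for Sox10 Fstl4 (0.981), Kif19a (0.977) and Cltb (0.964). For Sox11 they were Rgp1 (0.975), Marcks (0.973) and Sema3a (0.973), and for Sox4 Ddx17 (0.976), Zfp87 (0.973) and Pcmtd1 (0.970). For Sox12 they were 9130023H24Rik (0.977), Gpx7 (0.959) and Zfp784 (0.954), for Sox13 Cerk (0.963), Dusp6 (0.952) and Tpd52 (0.950), and for Sox15 Phf12 (0.98), Mast3 (0.959) and Bcl7c (0.959).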

How the data were processed

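The authors deposited log2 expression values per probe set of the Affymetrix Mouse Gene 1.0 ST array, made with RMA per the submitters' processing notes. Its version was not given in the sources used here. Per the labels' protocols, gonads were pooled by sex, treated with trypsin, stained with DAPI and sorted. The table held 35557 probe sets, of which 21789 had 1 gene symbol, 1621 several and 12147 were not listed, and symbols were updated to RefSeq of GRCm38.p6 by Entrez identifier for 21698. Per gene the probe set of highest mean was kept. Genes above the 25th percentile of their array on at least 3 arrays were tested (2367 removed). A limma 3.58.1 fit in R 4.3.3 gave each group 1 mean over 35 arrays (23 residual and 25.96 prior degrees of freedom), without covariates or further normalization. There were 13 comparisons, two-sided, with Benjamini-Hochberg adjustment over all genes tested, and the median SE of 3 against 3 arrays was 0.211. Precision is limited by the number of arrays. A gene that was the sort on 1 side of a comparison (Sox9, Sry or Pou5f1) is given there without a test. Members and gene lists were chosen with earlier results of these data known. From the lists, called genes and, by name, the 3 of largest difference were given, for members with group means spanning at least 1 the 3 most correlated genes, and uncalled list genes and Fgfr2 were named after their values were seen. Promoter windows are RefSeq's and are not used here for Sox9, Sox10 and Sox17. The fit was tested on simulated data. Alternatives were all 36 arrays, quantile normalization, median centring, other filters, probe set means, fits of the compared groups alone, a replicate block, array weights, an intensity trend and leaving out each array.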

Additional observations from a re-analysis of the deposited data

Results flagged for a closer look

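At TS34 the sex difference, XY minus XX, differed between supporting and germ cells by 1.684 for Sox8 (adjusted p = 4.86e-05, limma), 0.827 for Sox10 (adjusted p = 0.0369) and -1.005 for Sox11 (adjusted p = 0.0465). With 1 array left out, the Sox10 call was lost in 8 of 12 fits and the Sox11 call in 10 of 12, while the Sox8 call held. The supporting cells of the sexes came from different mouse lines at this stage, so sex and line cannot be told apart.

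Replicate 3 of the library group labelled germ XX TS24 entered no comparison and had levels above all 17 germ cell arrays used for 5 members. They were 7.85 for Sox4 against at most 7.70 on those arrays, 8.94 for Sox9 against at most 8.34, 9.28 for Sox11 against at most 7.79, 9.68 for Sox12 against at most 8.84, and 6.38 for Sox17 against at most 6.32. Its Sox2 level was 4.83, where those arrays had 8.17 or more.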

How the results depend on the processing

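Of 25 called member differences, 241 of 250 values under settings other than leaving out 1 array stayed called in the same direction, 9 did not, and 0 reversed. With 1 array left out, 311 of 342 stayed called and 31 did not. The number of members called moved by more than 1.5 times as follows. With all 36 arrays it was 1 for XY minus XX germ cells at TS24 (Sox12, adjusted p = 0.0114, against 0), 1 for TS34 minus TS13 in XX germ cells (against 3) and 0 in XY germ cells (against 2). Under quantile normalization, in the fit of the compared groups and with array weights it was 2 for XY minus XX supporting cells at TS13 (against 1, adding Sox10). For TS34 minus TS13 in XY supporting cells those settings gave 2, 3 and 4 (against 1), and in XX supporting cells the fit of the compared groups gave 1 and array weights 2 (against 0). Leaving out 1 array gave 1 to 3 members in XY germ cells over time and 1 to 2 for the sex difference at TS34, supporting minus germ (against 3). Smaller moves with 1 array left out were 4 to 5 in supporting cells at TS24 (against 5), 3 to 4 at TS34 (against 4), 2 to 3 over time in XX germ cells (against 3) and 6 to 7 for germ minus supporting (against 6). With all 36 arrays the 2 supporting cell counts were 4 and 3, and that for germ minus supporting was 7. The cause of these moves was not tested. Same-numbered arrays had deviation correlations from -0.508 to 0.194, and in 0 of 10 comparisons checked did every pair exceed 0.1, so the numbers do not pair the samples. The replicate block changed 1 member call, Sox15 in germ minus supporting cells (0.205, adjusted p = 0.0456).

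Over all genes, counts moved by more than 1.5 times as follows. With all 36 arrays, 397 genes were called in supporting cells at TS13 (against 664), 767 in germ cells at TS24 (344), 947 over time in XY germ cells (1430) and 286 for the change of the germ cell sex difference (648). Quantile normalization gave 739 and median centring 732 in germ cells at TS24. The fit of the compared groups gave 4248 in supporting cells at TS34 (2456), 14 in germ cells at TS13 (5), and 1339 and 2799 over time in XX and XY supporting cells (815 and 1761). Array weights gave 2032, 5714, 96, 5108, 2497, 4607, 5436 and 1520 for supporting cells at TS13 and TS34, germ cells at TS24 and TS34 (1845), XX and XY supporting cells over time, and the differences of sex differences between lineages (2243) and between stages. Leaving out 1 array gave 88 to 306 in germ cells at TS24, 1198 to 2532 at TS34, 5 to 9 at TS13, 939 to 1415 and 1128 to 1653 over time in XY germ and XY supporting cells, and 417 to 851 for the change of the germ cell sex difference. Scaling moved the share of called genes that were higher by over 10 percentage points: under quantile normalization and median centring it was 61.6% and 61.5% in supporting cells at TS13 (against 48.6%), 83.3% and 71.4% in germ cells at TS13 (100%) and 45.3% and 50.7% for germ minus supporting (61.9%). Under quantile normalization alone it was 53.7% over time in XX germ cells (37.9%), 51.5% in XY germ cells (40.9%) and 62.5% in XY supporting cells (73.7%). It moved the median of all genes by over 0.1 once, to -0.04 for germ minus supporting (0.08).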
